A study of Mus musculus with 10 samples.

Results

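Axon regeneration genes were followed in Thy1.2-positive cells sorted from mouse retina after optic nerve crush (ONC). The set was chosen by name and holds 9 genes of the 53974 in the RNA-seq table, namely *Gap43*, *Basp1*, *Stmn2*, *Sprr1a*, *Gal*, *Sox11*, *Myc*, *Tsc1* and *Tsc2*. All 9 were found. C57BL/6 mice of 8 to 10 weeks, homozygous for a floxed *Arid1a* allele, received AAV2 into the vitreous 2 weeks before the crush, and retinas were taken 3 days after it. AAV2 carrying GFP gave the group labelled WT (genotype label *Arid1a* fl/fl), and AAV2 carrying Cre gave the group labelled cKO (*Arid1a* del/del). Both groups were injected, crushed and sorted, and no uninjured library was included, so an effect of the crush itself cannot be read here. A CMV promoter drove both vectors, so expression was not restricted to retinal ganglion cells (RGCs), and each sorted sample was a pool of several retinas according to the study. RNA-seq covered 3 libraries of each label and ATAC-seq, which reads open chromatin by transposase insertion, 2 libraries of each label.

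Most central neurons do not regrow a cut axon in the adult, whereas peripheral neurons switch on a growth program that includes *Gap43*, *Sprr1a*, *Sox11* and *Gal*. GAP43 and BASP1 are membrane-bound proteins of the growth cone, where they organise actin, and STMN2 destabilises microtubules there. SOX11 and MYC are transcription factors whose forced expression has been used to change growth or survival of RGCs. TSC1 and TSC2 form the complex that holds back RHEB and thereby mTORC1, and they act as brakes on axon growth rather than as promoters of it.

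Some facts of the libraries touch every value below. The RNA values are TPM (transcript abundance scaled by transcript length and to a fixed total per library), which keep no sequencing depth, so no counting error can be given. *Arid1a* RNA was 18.8, 11.7 and 14.1 TPM for the label WT and no lower for the label cKO, at 18.8, 27.9 and 25.0 TPM (adjusted p = 0.274 from limma), so directions are given by label. TPM are summed over a whole gene, so RNA that lacks the floxed part is counted too. RGC markers were uneven. *Thy1*, the gene of the sort antigen, lay between 52.0 and 88.5 TPM for the label WT and between 94.45 and 128.9 TPM for the label cKO. Its log2 difference was 0.71 (adjusted p = 0.223 from limma). *Isl1*, which bipolar cells also use, lay between 51.9 and 104.4 TPM and *Nefl* between 5.47 and 20.6 TPM. *Pou4f2* was listed at 0 in 5 of 6 libraries, *Slc17a6* lay between 0.593 and 1.57 TPM and *Rbpms* between 1.82 and 6.43 TPM, whereas the summed 10 rod markers lay between 12500 and 48700 TPM. The cells are therefore named by their sort. Summed T cell markers (13 genes) lay between 968 and 2940 TPM in the libraries labelled WT and between 253 and 623 TPM in those labelled cKO, and the summed rod markers between 12500 and 17500 TPM and between 26000 and 48700 TPM. In such bulk libraries, fewer cells of a type and less RNA per cell cannot be told apart.

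The promoters of 6 of the 9 genes were held by the RefSeq table for GRCm38.p6, as windows from 250 bases before to 50 bases after the annotated start. The windows below belong to the 3 genes with an ATAC-seq region over the start (*Sox11*, *Basp1* and *Tsc1*) and, for contrast, to 2 without one (*Tsc2* and *Sprr1a*). They run 5′ to 3′ along the gene. Capitals mark matches on either strand to the GC box (GGGCGG), the CCAAT box (CCAAT), the ETS site (CCGGAAG), the AP-1 site (TGANTCA) and the TATA box (TATAAA).
Sox11, chr12:27342669-27342968, minus strand: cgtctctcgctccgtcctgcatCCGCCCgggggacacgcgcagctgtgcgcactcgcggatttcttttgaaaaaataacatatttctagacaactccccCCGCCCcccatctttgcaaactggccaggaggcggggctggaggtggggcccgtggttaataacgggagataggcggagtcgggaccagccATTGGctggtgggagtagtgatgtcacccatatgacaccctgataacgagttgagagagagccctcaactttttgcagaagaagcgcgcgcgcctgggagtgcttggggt
Basp1, chr15:25413715-25414014, minus strand: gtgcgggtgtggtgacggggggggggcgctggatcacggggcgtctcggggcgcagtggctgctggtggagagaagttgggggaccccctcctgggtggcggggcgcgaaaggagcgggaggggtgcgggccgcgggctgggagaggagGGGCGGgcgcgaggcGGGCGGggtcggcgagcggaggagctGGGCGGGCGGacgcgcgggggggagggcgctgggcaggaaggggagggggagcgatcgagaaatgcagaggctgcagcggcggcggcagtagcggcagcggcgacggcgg
Tsc1, chr2:28640983-28641282, plus strand: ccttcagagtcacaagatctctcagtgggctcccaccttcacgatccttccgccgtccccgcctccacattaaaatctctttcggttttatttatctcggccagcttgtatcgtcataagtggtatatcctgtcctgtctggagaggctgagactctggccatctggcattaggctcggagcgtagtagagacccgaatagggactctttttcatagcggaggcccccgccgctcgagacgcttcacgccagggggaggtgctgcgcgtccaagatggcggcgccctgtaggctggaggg
Tsc2, chr17:24632578-24632877, minus strand: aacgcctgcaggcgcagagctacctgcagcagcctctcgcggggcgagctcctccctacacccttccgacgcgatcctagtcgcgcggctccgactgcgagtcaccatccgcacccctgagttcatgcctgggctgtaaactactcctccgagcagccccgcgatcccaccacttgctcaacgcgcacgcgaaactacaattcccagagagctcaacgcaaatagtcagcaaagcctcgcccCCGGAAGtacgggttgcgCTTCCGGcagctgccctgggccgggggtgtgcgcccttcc
Sprr1a, chr3:92485832-92486131, minus strand: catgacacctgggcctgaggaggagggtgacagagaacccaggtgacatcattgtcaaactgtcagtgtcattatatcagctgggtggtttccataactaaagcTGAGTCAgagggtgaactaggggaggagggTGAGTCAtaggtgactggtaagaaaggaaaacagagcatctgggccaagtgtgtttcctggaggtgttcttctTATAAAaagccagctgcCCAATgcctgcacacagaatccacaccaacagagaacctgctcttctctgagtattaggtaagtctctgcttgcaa
The *Sox11* window holds 2 GC boxes and 1 CCAAT box, and the *Basp1* window holds 4 GC boxes, of which 2 overlap each other. The *Tsc2* window holds 2 ETS sites, and the *Tsc1* window none of the motifs. The *Sprr1a* window holds 2 AP-1 sites, 1 TATA box and 1 CCAAT box. Of all 32851 promoter windows of the table, 35.7% hold a GC box, 37.4% a CCAAT box, 8.86% an ETS site, 7.81% an AP-1 site and 13.6% a TATA box. The E-box bound by MYC and MAX (CACGTG, in 7.15% of windows), the CRE (TGACGTCA, 1.79%) and the NRF1 site (0.971%) were searched as well and matched none of the 6 windows. A match describes the letters only. The windows differ most in CpG dinucleotides, with 38 in *Basp1*, 29 in *Tsc2*, 21 in *Sox11*, 20 in *Tsc1* and 0 in *Sprr1a*, beside a median of 7 over all windows.

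Of the 9 genes, 6 had at least 1 TPM in all 6 libraries and passed the filter for testing (at least 1 TPM in at least 3 libraries), which 17555 genes passed. *Sprr1a*, *Sox11* and *Gal* did not. In the libraries labelled WT the order by mean TPM was *Gap43*, *Myc*, *Tsc2*, *Basp1*, *Tsc1*, *Stmn2*, *Sprr1a*, *Sox11* and *Gal*. The ranges of neighbours in that order overlapped, except between *Tsc2* and *Basp1* and between *Tsc1* and *Stmn2*. In the libraries labelled cKO the order was *Tsc2*, *Gap43*, *Tsc1*, *Basp1*, *Myc*, *Stmn2*, *Sox11*, *Sprr1a* and *Gal*, and neighbours overlapped except between *Gap43* and *Tsc1* and between *Stmn2* and *Sox11*. In the cKO order *Myc* thus stood in the fifth place instead of the second.

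**Figure D1:**
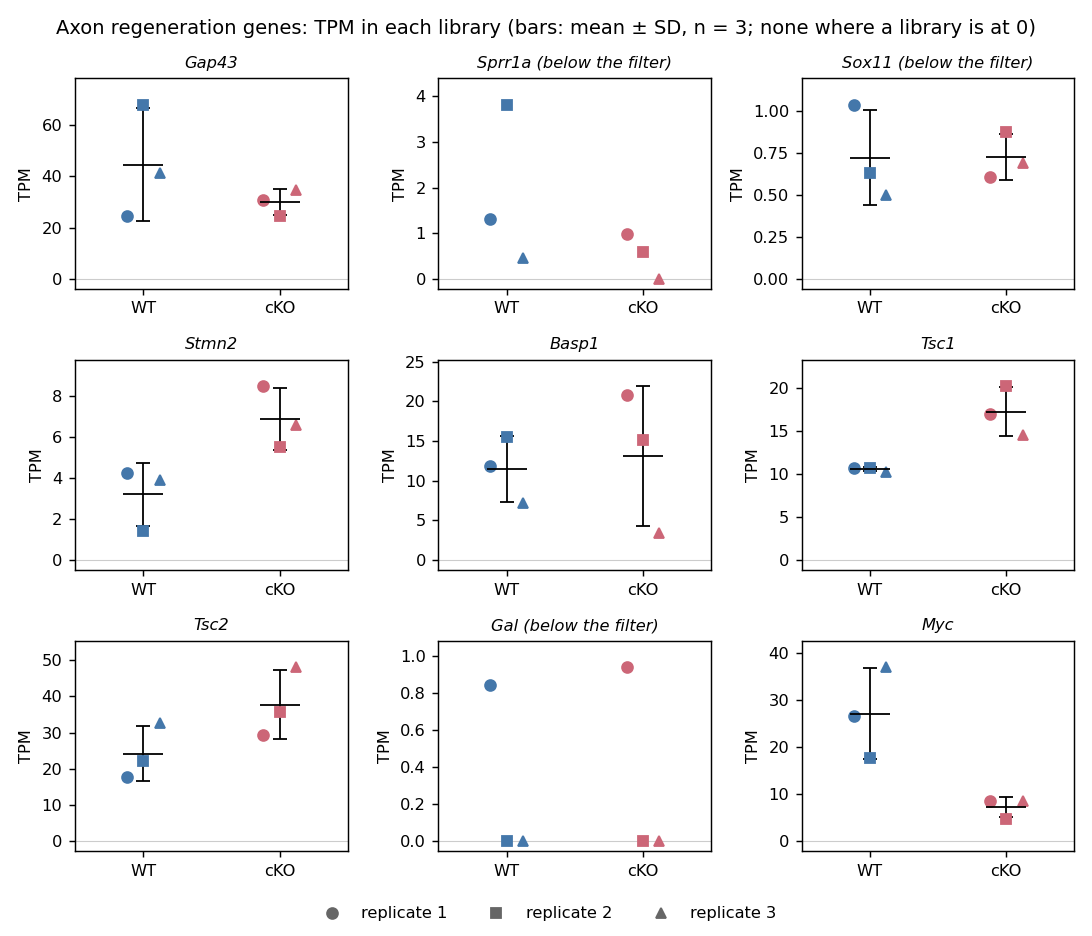
TPM of each of the 9 genes (y axes, linear, scaled per gene) in the RNA-seq libraries labelled WT (blue) and cKO (red). Each symbol is 1 library and bars give the mean ± SD of 3 libraries, left out for genes with a library at 0; *Myc*, *Stmn2* and *Tsc1* show no overlap between the labels.

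For the comparison between labels, log2(TPM + 1) was fitted with limma across all 17555 genes and p-values were adjusted over all of them. The fold on this scale understates the difference of low genes. None of the 6 genes tested passed an adjusted p under 0.05, as was the case for nearly all genes (0.0057% of all genes tested were called higher and 0% lower). Without adjustment, limma put 2 genes at a p under 0.05 and higher for the label cKO (*Stmn2* and *Tsc1*), beside 11.9% of all genes, and 1 lower (*Myc*), beside 6.45% (18.4% in either direction). When TPM were rescaled by the median of ratios, 1 of the 6, *Myc*, was at that level. The median log2 difference of all genes tested was 0.16 in TPM and 0.01 after rescaling. The labels did not overlap in the same 3 genes. Over all genes tested, 18.7% had every library labelled cKO above every one labelled WT and 7.18% had every one below.

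*Myc* had the largest difference of the 6. Replicates 1, 2 and 3 of the label WT held 26.6, 17.8 and 37.0 TPM, and those of the label cKO 8.62, 4.79 and 8.50 TPM. Every library labelled cKO lay below every one labelled WT, and replicate 2 was the lowest of each label. The means were 27.1 ± 9.61 TPM (SD, n = 3) and 7.3 ± 2.18 TPM (SD, n = 3), a 3.71-fold lower level in the libraries labelled cKO. Limma estimated a log2 difference of -1.74 (standard error 0.36, adjusted p = 0.124), and the exact two-sided permutation test gave p = 0.1, the smallest that 3 libraries against 3 allow. Leaving out single libraries moved the estimate between -2.0 and -1.49. Summed T cell and myeloid markers were lower in every library labelled cKO than in any labelled WT, and summed B cell markers overlapped (8660 to 54400 TPM for the label WT, 2300 to 9240 TPM for the label cKO). Their part in the result was not tested.

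*Stmn2*, the microtubule regulator of growing axons, stood at 4.26, 1.44 and 3.93 TPM for the label WT and at 8.51, 5.54 and 6.62 TPM for the label cKO. Every library labelled cKO lay above every one labelled WT, and replicate 2 was the lowest of each label. The mean was 3.21 ± 1.54 TPM (SD, n = 3) against 6.89 ± 1.51 TPM (SD, n = 3), or 2.15-fold higher, with a log2 difference of 0.97 (standard error 0.38, adjusted p = 0.246 from limma, exact permutation p = 0.1). Without WT replicate 2 the estimate was 0.61. Summed markers of amacrine cells, other neurons of the inner retina, lay between 821 and 986 TPM for the label WT and between 1390 and 2300 TPM for the label cKO. Their part in the result was not tested.

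*Gap43*, the growth cone protein that is the usual marker of a growing axon, was among the most abundant of the set. Replicates 1, 2 and 3 labelled WT held 24.3, 67.9 and 41.3 TPM and those labelled cKO held 30.7, 24.4 and 34.7 TPM. All 3 libraries labelled cKO lay within the range of those labelled WT, whose replicate 2 was the highest of all. The log2 difference of -0.45 (standard error 0.38, adjusted p = 0.562 from limma, exact permutation p = 0.5) was within the spread of the libraries. It was -0.10 without WT replicate 2 and -0.82 without WT replicate 1. WT replicate 2 was also the highest library for 7 of the 12 RGC markers tested and for 26.0% of all genes tested; its part in the result was not tested.

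*Basp1*, which like *Gap43* encodes a lipid-anchored protein of the growth cone, varied more within labels than between them. It stood at 11.8, 15.5 and 7.16 TPM for the label WT and at 20.7, 15.2 and 3.45 TPM for the label cKO, so that the highest and the lowest library carried the same label. The SD within labels was 0.93 on the log2 scale, larger than that of 90.3% of the genes tested, whose median was 0.41. The log2 difference was -0.05 (standard error 0.62, adjusted p = 0.977 from limma, exact permutation p = 0.9), although the mean was higher for the label cKO (13.1 ± 8.83 against 11.5 ± 4.16 TPM, SD, n = 3 each). Without cKO replicate 3 it was 0.65 and without cKO replicate 1 it was -0.50, so its sign rested on single libraries. Scaling by RGC markers turned it to 0.10.

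*Tsc1* and *Tsc2*, the brakes on mTORC1, both had higher means in the libraries labelled cKO. *Tsc1* stood at 10.7, 10.7 and 10.3 TPM for the label WT and at 17.0, 20.3 and 14.6 TPM for the label cKO. The labels did not overlap, and the SD within labels of 0.16 on the log2 scale was larger than that of 5.98% of the genes tested. Its mean was 1.64-fold higher, with a log2 difference of 0.65 (standard error 0.24, adjusted p = 0.225 from limma, exact permutation p = 0.1). *Tsc2* stood at 17.7, 22.3 and 32.6 TPM for the label WT and at 29.2, 35.7 and 48.0 TPM for the label cKO. Replicate 1 labelled cKO lay below replicate 3 labelled WT, so the labels overlapped. In both labels replicate 3 was the highest and replicate 1 the lowest. The log2 difference of *Tsc2* was 0.63 (standard error 0.31, adjusted p = 0.324 from limma, exact permutation p = 0.2). A block on the replicate number, which the labels do not describe as a pairing, gave *Tsc2* an adjusted p of 0.174 from limma. *Tsc2* overlaps *Pkd1* by 699 bp in the gene table, and how reads there were shared out is not known. Rescaled by the median of ratios, the log2 differences were 0.49 for *Tsc1* and 0.47 for *Tsc2*. Summed rod markers were also higher in every library labelled cKO than in any labelled WT, and their part in the result was not tested.

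*Sprr1a*, *Gal* and *Sox11* were the lowest of the set in both labels. *Sprr1a*, a small proline-rich protein of the cornified envelope that axotomised sensory neurons also make, stood at 1.30, 3.82 and 0.455 TPM for the label WT and at 0.990 and 0.580 TPM in replicates 1 and 2 labelled cKO, and was listed at 0 in replicate 3. Only 2 libraries, both labelled WT, reached 1 TPM, and the ranges overlapped. It belongs to a family of similar genes among which reads may be split. *Gal*, the precursor of the neuropeptide galanin, was listed at 0 in 4 of the 6 libraries and stood at 0.843 TPM in replicate 1 labelled WT and at 0.941 TPM in replicate 1 labelled cKO. *Sox11* stood at 1.04, 0.629 and 0.499 TPM for the label WT and at 0.607, 0.875 and 0.693 TPM for the label cKO. Its means of 0.722 ± 0.282 TPM (SD, n = 3) and 0.725 ± 0.137 TPM (SD, n = 3) differed by far less than the spread.

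**Figure D2:**
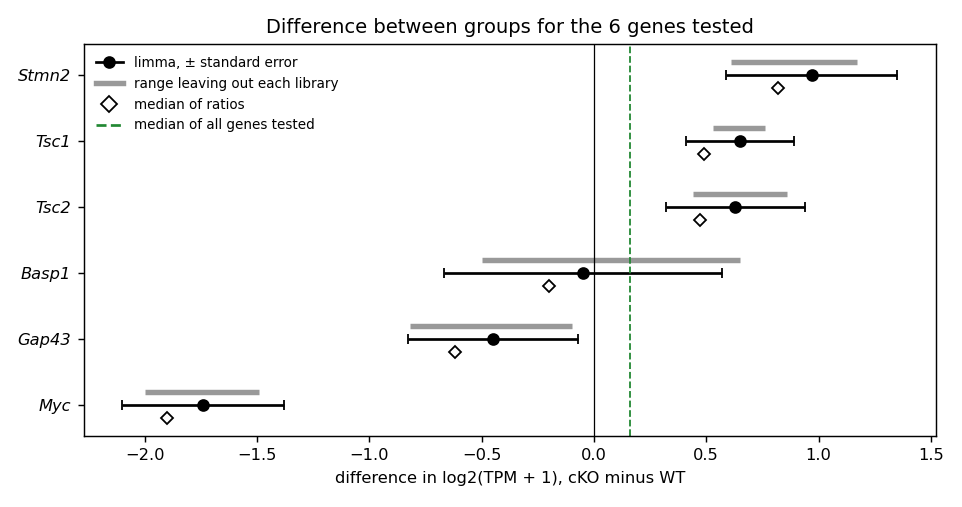
Difference in log2(TPM + 1) between the labels, cKO minus WT (x axis), for the 6 genes tested. Black points with bars give limma's estimate ± standard error (3 libraries per label), grey bars the range when each library is left out, open diamonds the value after scaling by the median of ratios and the dashed line the median of all genes tested, 0.16. *Myc* lies lowest at -1.74 and *Stmn2* highest at 0.97, and the grey bar of *Basp1* crosses 0.

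The likeness of patterns was measured as the root mean square difference of mean-centred log2(TPM + 1) over the 6 libraries, which share their libraries and their scaling. The genes nearest to *Myc* were *Ly9* (0.13 on the log2 scale), *Arhgef3* (0.14) and *Sash3* (0.14). *Ly9*, a receptor of lymphocytes, stood at 44.7, 24.5 and 49.2 TPM for the label WT and at 12.7, 6.67 and 13.9 TPM for the label cKO. Nearest to *Tsc1* were *Chordc1* (0.037), *Cul5* (0.049) and *Vma21* (0.056), and nearest to *Tsc2* was *Pde4dip* (0.052), followed by *Gm7265* (0.070) and *B230317F23Rik* (0.079). For *Gap43* they were *Gm48302* (0.081), *Sp2* (0.083) and *Agpat1* (0.11), for *Stmn2* *Gpr21* (0.078), *Gm48239* (0.11) and *Gm48408* (0.11), and for *Basp1* *Abhd12* (0.14), *Psmd3* (0.15) and *Cyth2* (0.18). Within the set, *Tsc1* and *Tsc2* were the closest pair at 0.40, whereas *Gap43* and *Basp1* were 0.93 apart. That likeness is not particular to the pair, as *Tsc2* ranked 6031 in nearness to *Tsc1* among the genes tested, and *Tsc1* ranked 4147 in nearness to *Tsc2*.

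The ATAC-seq comparison gives 16600 regions with the authors' mean of normalized reads per group, on a log2 scale and without a value per library, which leaves the replicate spread unknown, and no test was run. Of the 9 genes, 4 had a region within 1000 bp of either end, with 5 regions in all. Of the genes tested in RNA that have a position, 51.5% had such a region. In 4 of the 5 regions the cKO mean was lower by at least 1 log2 unit. This was so in 59.8% of all regions and in 93.1% of the regions within 1000 bp of an end of a gene tested in RNA, so the count of the set does not exceed its background. At least 2 log2 units lower were 3 of the 5, beside 40.8% of all regions and 71.8% of those at gene ends. The median log2 difference of the 5 regions was -2.02, beside -2.58 for the regions at gene ends and -1.57 for all.

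The largest difference of the set lay at the start of *Basp1*, at chr15:25413503-25414025 of GRCm38, which covers all 300 bases of the promoter window printed above. Its means were 19.8 normalized reads in WT and 2.11 in cKO, 9.38-fold lower, with peaks in both WT libraries and in neither cKO library. A second region upstream of *Basp1*, at chr15:25414257-25415025, had 19.6 and 7.16 normalized reads, a log2 difference of -1.45. Both also lie within 1000 bp of an end of *Gm48957*. The *Sox11* region, at chr12:27342621-27343384, covers the whole window and had 26.7 normalized reads in WT and 4.72 in cKO, 5.66-fold lower. The *Tsc1* region, at chr2:28640919-28641425, covers its window and had 33.6 and 8.28 normalized reads, 4.06-fold lower. Each of these regions had a peak in both WT libraries and in neither cKO library. The outer borders of these regions are those of the WT peaks, so the peaks in WT are tied to how the regions were drawn. Set beside the RNA, the accessible *Basp1*, *Sox11* and *Tsc1* promoters were lower in cKO by the group means, while the mean TPM of the 3 genes was no lower in the libraries labelled cKO. *Sox11* was below the filter for testing, and limma's estimate for *Basp1* was -0.05, with a sign that rested on single libraries. The same held for genes at large, with 93.1% of regions at gene ends lower and a median RNA difference of 0.16.

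The exception was *Gap43*. Its region, at chr16:42340982-42341775, beyond the upper end of the gene, had 4.38 normalized reads in WT and 6.41 in cKO, a log2 difference of 0.55. Regions with a higher cKO mean made up 22.5% of all regions and 2.15% of those at gene ends. The region was a faint one, as only 10.7% of all regions had fewer reads in WT, and it was covered by peaks of the libraries WT replicate 1 and cKO replicate 1, with none in the second library of either group. *Myc* had no region within 1000 bp of its ends. Within 3000 bp lay 1 region, inside the gene at chr15:61986542-61988244, with 39.7 normalized reads in WT and 18.1 in cKO, 2.19-fold lower, and peaks in the WT libraries alone.

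**Figure D3:**
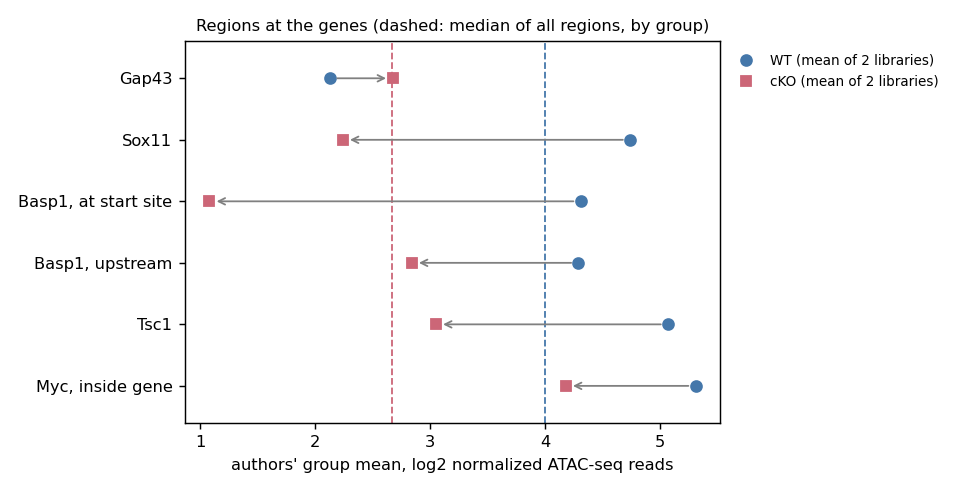
Authors' group means of log2 normalized ATAC-seq reads (x axis) in WT (blue circles) and cKO (red squares), each a mean of 2 libraries with no error given, for the 5 regions within 1000 bp of an end of the named genes and the *Myc* region within 3000 bp. Arrows point from WT to cKO and dashed lines give the medians of all regions; 5 arrows point left, and that of *Gap43* points right.

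The peak lists of the single libraries were searched as well. A peak within 1000 bp of an end was found for 6 of the 9 genes in WT replicate 1, 4 in WT replicate 2, 3 in cKO replicate 1 and 0 in cKO replicate 2. Over genes tested in RNA, the shares were 65.1%, 58.2%, 13.6% and 13.9% in the same order. The whole lists held 76522, 42265, 55902 and 68317 peaks in that order, so WT replicate 2 had the fewest. The cause of the lower share at gene ends in cKO was not tested. *Myc* had a peak of 268 bp over its lower end in WT replicate 1 and one of 266 bp near that end in WT replicate 2, which did not overlap each other. *Stmn2* had a peak of 281 bp at its lower end in WT replicate 1 alone, and *Sprr1a* had none in any of the 4 libraries. *Tsc2* and *Gal* had 1 peak each, at the end away from the start and in cKO replicate 1 alone.

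Other genes of the same pathways were described by lists, with shares of 11.9% higher and 6.45% lower at an unadjusted p under 0.05 from limma over all genes tested as the background. None of their genes passed an adjusted p under 0.05. Of 28 genes for the growth cone and axon cytoskeleton 27 were tested, and the median log2 difference was 0.41, beside 0.16 for all genes. Of the 27, 7 were higher and 1 lower at an unadjusted p under 0.05 for the label cKO, and after scaling by the median of ratios 5 and 2. Of the 7, *Cntn2*, passed the filter only through the libraries labelled cKO, and without it 6 of 26 were higher. Markers of several retinal neurons were higher for the label cKO as well, with a median log2 difference of 1.48 for rods, 0.99 for cones, 0.78 for amacrine cells and 0.38 for bipolar cells. Those of RGCs were split, with 7 of the 12 tested above 0, 5 below and a median of 0.06. They ran from -0.83 for *Sncg* to 1.36 for *Ebf3*, and their summed TPM was higher in every library labelled cKO than in any labelled WT. The part of these markers in the result was not tested. *Dpysl3*, a collapsin response mediator, stood at 16.3, 16.7 and 16.8 TPM for the label WT and at 38.0, 51.0 and 59.7 TPM for the label cKO. *Map1b*, a microtubule-binding protein of growing axons, had 149 TPM on average for the label WT and 305 TPM for the label cKO. *Cntn2*, an axonal adhesion molecule, had 0.450 and 2.54 TPM. *Dpysl3* and *Map1b* had a log2 difference of 1.5 and 1.02 and an adjusted p of 0.124 each from limma.

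Of 28 injury-induced regeneration-associated genes 22 were tested, 7 with a log2 difference above 0 and 15 below, and a median of -0.57. Of these, 0 were higher and 4 lower at an unadjusted p under 0.05, and after scaling by the median of ratios 0 and 7. The labels did not overlap in 5 genes lower (7.18% of all genes tested) and 1 gene higher (18.7% of all) for the label cKO. The neuropeptide genes *Vip* (log2 difference 2.01, adjusted p = 0.346 from limma) and *Npy* (1.70, adjusted p = 0.383), named after their values were seen, had the highest estimates of the list, with overlap between labels. *Klf6*, a zinc finger factor, stood at 311.9, 154.3 and 264.9 TPM for the label WT and at 111.4, 56.8 and 81.7 TPM for the label cKO (log2 difference -1.53, adjusted p = 0.126 from limma). *Cdkn1a*, the cell cycle inhibitor p21, had 15.9 and 4.81 TPM on average and *Plaur*, the urokinase receptor, 16.7 and 4.04 TPM. Immune cells also make *Plaur*, and summed myeloid markers lay between 2280 and 3840 TPM for the label WT and between 1010 and 1370 TPM for the label cKO. Their part in the result was not tested.

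For the mTOR pathway, all 38 listed genes were tested. The median log2 difference was 0.25, with 3 higher and 1 lower at an unadjusted p under 0.05, and 1 and 1 after scaling by the median of ratios. *Tbc1d7*, the third subunit of the TSC complex, stood at 14.2, 20.1 and 16.4 TPM for the label WT and at 26.9, 26.3 and 28.1 TPM for the label cKO, without overlap (log2 difference 0.67, standard error 0.23, adjusted p = 0.203 from limma). The 3 subunits thus had log2 differences of 0.63 to 0.67, none of which passed the test. *Rps6kb2*, a kinase downstream of mTORC1, had 76.8 and 113 TPM on average. *Eif4ebp1*, the translation repressor that mTORC1 inactivates, stood at 8.69, 9.08 and 10.7 TPM for the label WT and at 3.10, 2.91 and 4.45 TPM for the label cKO, a log2 difference of -1.24 (adjusted p = 0.124 from limma). By ATAC-seq, 32 of the 38 genes had a region at an end, and 31 of them had one lower in cKO by at least 1 log2 unit, beside 94.9% of genes tested in RNA with a region. *Tbc1d7* was the gene without one, as its region had 17.0 normalized reads in WT and 11.7 in cKO.

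Of the 12 listed genes of the MYC-MAX network, which holds relatives of MYC as well as partners and antagonists, 11 were tested. Their median log2 difference was -0.03, and -0.19 after scaling by the median of ratios. At an unadjusted p under 0.05 from limma, 1 gene, *Mga*, was higher, and after that scaling 0 were higher and 0 lower. *Mga*, which competes for MAX, stood at 25.5, 24.4 and 36.0 TPM for the label WT and at 42.2, 49.9 and 45.8 TPM for the label cKO. *Mlxip* and *Mycn*, the other genes of lowest p, had 23.4 and 9.65 TPM and 11.1 and 16.2 TPM on average in the labels WT and cKO. The labels overlapped for *Mycn*, not for *Mlxip*. All 7 genes of this list with an ATAC-seq region at an end had one lower in cKO by at least 1 log2 unit, beside 94.9% of genes tested in RNA with a region. The median log2 difference of their regions was -3.64, beside -2.58 for regions at gene ends. Known MYC target genes gave 2 higher and 3 lower of 26 tested, with a median log2 difference of 0.13. After scaling by the median of ratios they gave 1 and 4, with a median of -0.04. *Ccnd2*, a cyclin, had 100.0 and 18.8 TPM on average (log2 difference -2.30) and *Odc1*, the first enzyme of polyamine synthesis, 26.1 and 8.82 TPM (log2 difference -1.47). *Tfrc*, the transferrin receptor, differed the other way, with 36.4 and 82.1 TPM (log2 difference 1.16). Each of the 3 had an adjusted p of 0.124 from limma.

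*Sox11* and *Gal* have relatives that were better covered. Among SOXC and other neuronal transcription factors, 12 of 12 were tested, with a median log2 difference of -0.13. At an unadjusted p under 0.05 from limma, 2 were higher and 0 lower, and after scaling by the median of ratios 1 and 0. *Neurod1*, which photoreceptors also use, had 83.8 and 197 TPM on average (log2 difference 1.18, adjusted p = 0.124 from limma), and *Neurod4* had 208 and 365 TPM. *Creb1* lay between 13.4 and 22.4 TPM for the label WT and between 24.6 and 30.8 TPM for the label cKO. *Galr1* was listed at 0 in all 6 libraries, *Galr3* at 0 in 5, and *Galr2* stayed under 1 TPM in each, so neither galanin nor its receptors could be tested. Of this list of neuropeptides and receptors 6 of 12 were tested, 2 of them higher at an unadjusted p under 0.05, with a median log2 difference of 1.32. After scaling by the median of ratios, 1 was higher at that level. *Npy* and *Vip* stand on this list and on that of injury-induced genes. Amacrine cells make several of these peptides, and summed amacrine markers lay between 821 and 986 TPM for the label WT and between 1390 and 2300 TPM for the label cKO. Their part in the result was not tested. *Spx*, which encodes the galanin-related peptide spexin, stood at 19.3, 25.2 and 20.0 TPM for the label WT and at 34.6, 32.3 and 37.0 TPM for the label cKO. *Cartpt* had 76.8 and 177 TPM on average and *Tac1* 10.9 and 32.5 TPM, both with overlap between labels.

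**Figure D4:**
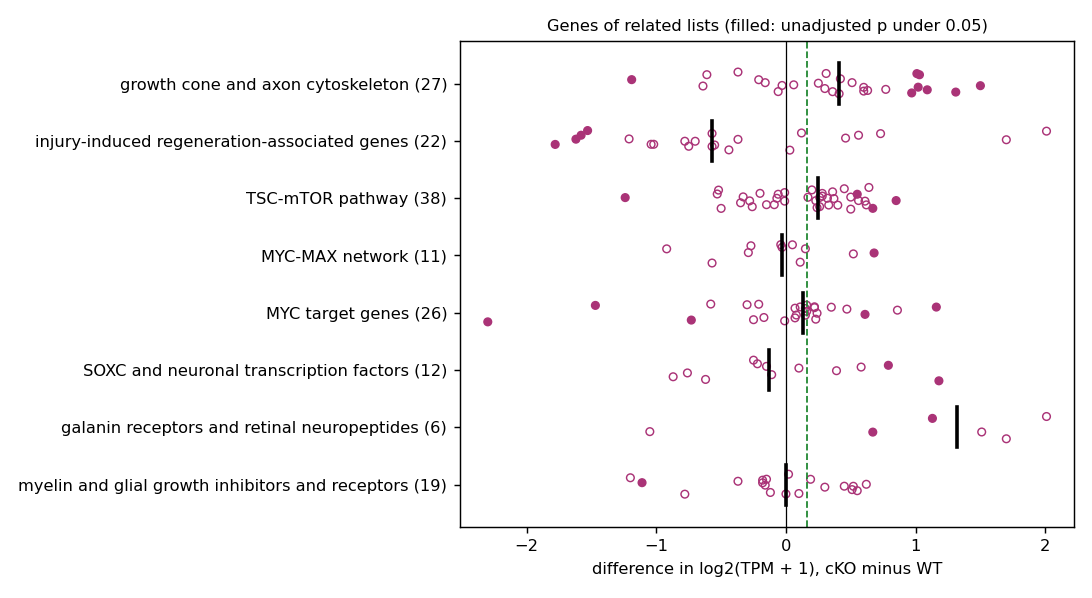
Difference in log2(TPM + 1), cKO minus WT (x axis), for each tested gene (circles) of 8 lists, with the number tested in brackets. Filled circles have an unadjusted p under 0.05 from limma, black bars are list medians and the dashed line is the median of all genes tested; the growth cone list has its median at 0.41 and the injury-induced list at -0.57.

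Set beside the cell type markers, the genes of the set showed different patterns. T cell markers were lower in the libraries labelled cKO in 13 of 13 genes by limma's estimate, with a median log2 difference of -2.08, and B cell markers in 6 of 6, with a median of -2.05. Rod markers were higher in 10 of 10 genes, with a median of 1.48, and amacrine markers in 9 of 10, with a median of 0.78. The 12 RGC markers tested were split, with 7 above 0, 5 below and a median of 0.06. The summed RGC markers lay between 155 and 214 TPM for the label WT and between 231 and 253 TPM for the label cKO. *Myc* was low in the libraries where T cell markers were low. *Stmn2*, *Tsc1* and the summed amacrine and rod markers were higher in every library labelled cKO than in any labelled WT. Within the label cKO their orders differed. In replicates 1, 2 and 3, centred log2 values were 0.8, 0.2 and 0.5 for *Stmn2* and 0.3, 0.6 and 0.1 for *Tsc1*. The rod sum stood at 0.1, 1.0 and 1.0 and the amacrine sum at 0.8, 0.6 and 0.1. For the RGC sum the values were 0.3, 0.1 and 0.2. The part of these markers in the results was not tested.

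**Figure D5:**
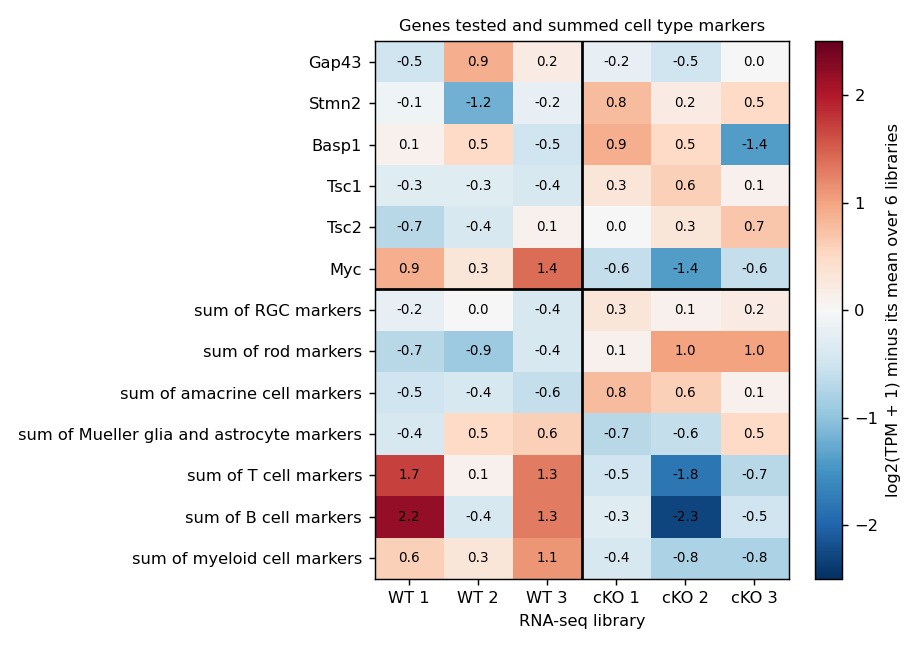
Log2(TPM + 1) minus its mean over the 6 RNA-seq libraries (colour and printed number) for the 6 genes tested (upper rows) and for the summed TPM of 7 marker lists (lower rows). Columns are the 3 libraries labelled WT and the 3 labelled cKO; *Myc* and the T cell markers are both lowest in cKO replicate 2, at -1.4 and -1.8.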

How the data were processed

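RNA-seq and ATAC-seq libraries were grouped by their titles. The authors trimmed reads with Trimmomatic, quantified RNA with Salmon 1.0.0 and tximport on GENCODE transcripts (GRCm38), and deposited TPM values. For ATAC-seq they aligned reads with Bowtie2 2.3.5.1, and MACS2 2.2.5 is named in the submitters' processing notes; the deposited peak lists, 1 per library, give positions alone, and the deposited log2 values are DiffBind group means of normalized reads. The authors' own fold changes, p-values and FDR of both comparisons were not used. Sequencing depth is unknown, since TPM keeps none.

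Genes that reached 1 TPM in 3 or more libraries were tested on log2(TPM + 1) with limma 3.58.1 in R 4.3.3 (empirical Bayes with trend, Benjamini-Hochberg adjustment over 17555 genes). Single genes were also given an exact two-sided permutation test. P-values measure the spread between libraries. The fit and the region search were tested on simulated data. ATAC-seq differences were computed from the group means; region starts equal the zero-based starts of the peak lists, so 1 was added to print positions. Gene ends and promoters came from RefSeq on GRCm38.p6. Across genes, the RNA-seq libraries numbered 1 deviated together, as did those numbered 3 (Pearson's r 0.334 and 0.425). Those numbered 2 had 0.101, within the range of -0.386 to 0.193 for unlike numbers. This was the only evidence of pairing, so a block on the replicate number was run as an alternative. The 9 genes, the lists and the tests were chosen with earlier results of these data known. Genes named from a list are its 3 with the lowest p. Other computations used Python 3.11.15.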

Additional observations from a re-analysis of the deposited data

How the results depend on the processing

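Under 13 alternatives (a pseudocount of 0.1, no filter, a mean TPM of at least 5, 2 scalings, the replicate block, no trend and leaving out each library), 0 of the genes of the set and 0 genes of the pathway lists passed an adjusted p under 0.05 from limma, as in the values reported. With the replicate number as a block, *Myc* kept its log2 difference of -1.74 with an adjusted p of 0.0633, the lowest of all alternatives, which ran up to 0.468, and the block changed no call of the set or lists. *Gap43*, *Stmn2*, *Tsc1*, *Tsc2* and *Myc* kept their direction in all 13. *Basp1* did not: scaled by RGC markers its log2 difference was 0.10, and with each library left out it ran from -0.50 to 0.65; the cause was not tested. With each library left out, the differences ran from -0.82 to -0.10 for *Gap43*, from 0.61 to 1.17 for *Stmn2*, from 0.53 to 0.76 for *Tsc1*, from 0.44 to 0.86 for *Tsc2* and from -2.0 to -1.49 for *Myc*. Genes of the set at an unadjusted p under 0.05 numbered 3, and 1 after either scaling or without cKO replicate 1 or 2. With the block they numbered 4. Pathway list genes at that level numbered 28, 37 with the block, and 16 without cKO replicate 1 or 2. Scaling by RGC markers moved the median difference of all genes from 0.16 to 0.31. Without the filter, *Sprr1a*, *Sox11* and *Gal* had log2 differences of -0.79, 0.01 and 0.03, with an adjusted p of 0.574 or more from limma.

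For ATAC-seq, 6 regions lay within 3000 bp of an end and 4 within 1000 bp of the annotated start of the 6 genes with one in the table, beside 5. Lower by at least 1 log2 unit were 5 and 4 of these, and 3 of the 5 were lower by at least 2 log2 units. Of 10 pairs of a region and a WT library, 9 had a peak, and 6 with a reciprocal overlap of 50%. The regions were bounded by peaks of the same libraries, so this count is not separate support. In ATAC-seq, pairing by replicate number could not be used, since only group means are given.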

Other observations

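Receptors and ligands that restrain axon growth were described as a further list. Of 22 genes 21 were in the table and 19 were tested, with a median log2 difference of 0.00 between the labels (-0.17 after scaling by the median of ratios), and 0 were higher and 1 lower at an unadjusted p under 0.05 from limma. *Pirb*, a receptor for myelin inhibitors that myeloid cells also make, stood at 10.9, 9.10 and 14.4 TPM for the label WT and at 5.29, 5.06 and 3.8 TPM for the label cKO, a log2 difference of -1.11 (adjusted p = 0.141 from limma). *Ptprf* and *Ptprd*, receptor phosphatases of axons, had 22.8 and 36.5 TPM and 30.3 and 44.7 TPM on average in the labels WT and cKO. The summed TPM of the list was 5370 in WT replicate 2 and between 1430 and 2390 in the other libraries; *Rtn4*, which encodes Nogo and was chosen after its values were seen, stood at 3692 TPM in WT replicate 2 and between 585.6 and 893.2 TPM in the others. *Gap43* and *Sprr1a* were highest in that library too.

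Genes of the cornified envelope and keratins, the usual company of *Sprr1a* in epithelia, were scarce. Of the 10 listed, 5 were at 0 in every library and 1 was tested. That gene, *Krt18*, had 27.3 and 46.2 TPM on average in the labels WT and cKO (log2 difference 0.70, adjusted p = 0.258 from limma).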
